A study of Mus musculus with 6 samples.

Results

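The proteasome genes of subcutaneous white adipose tissue (scWAT) were described as 1 set. It took every gene whose symbol was *Psma*, *Psmb*, *Psmc*, *Psmd*, *Psme*, *Psmf* or *Psmg* followed by a number, without pseudogenes, together with *Pomp* and *Nfe2l1*, which gave 50 genes of the 55401 in the files. RNA-seq had been run on whole scWAT of male mice aged 8 weeks and kept at room temperature, 3 in each of 2 groups. The control mice, which the labels call WT and the study's methods call YT-FF, carried floxed alleles of *Yap* and *Taz* without Cre. The YT-AKO mice, Yapfl/fl/Tazfl/fl;AdipoqCre, had the same floxed alleles and Cre driven by the promoter of *Adipoq*, a gene of mature adipocytes, so blood vessel, stromal and immune cells of the fat pad were sequenced but not targeted. The comparison asked how the genes differed in scWAT whose adipocytes were meant to lack both transcriptional co-activators.

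The proteasome is the barrel-shaped protease that degrades ubiquitin-tagged proteins. Its 20S core has outer rings of alpha subunits, which gate the entrance, and inner rings of beta subunits, of which only a few cut proteins, and the 19S regulatory particle recognises, unfolds and feeds in the substrate. Interferon-induced catalytic subunits can replace the constitutive ones and form the immunoproteasome, which is known for the peptides it makes for MHC class I. NFE2L1 (also called NRF1 or TCF11) is a transcription factor of the endoplasmic reticulum that raises proteasome genes when the protease is short of capacity, and it is known for this work in brown fat during cold.

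Targeted genes were read first. Counts of *Yap1* in YT-FF 1 to 3 were 1622, 1300 and 1295, those in YT-AKO 1 to 3 were 649, 492 and 529. Counts of *Wwtr1*, the gene of TAZ, were 1818, 1729 and 1918 in YT-FF but 3015, 2253 and 2716 in YT-AKO. *Yap1* was lower and *Wwtr1* was higher, against its label (log2 fold changes -0.98 and 0.89, adjusted p = 0.0179 and 0.0220, quasi-likelihood test of edgeR, Benjamini-Hochberg adjustment), so the directions given here are those of libraries labelled YT-AKO. The counts sum every exon, so a deleted exon would not show. The 6 libraries held 17740987 to 21838493 counts, and YT-AKO 2 stood apart with 20501 genes counted at least once, against 22810 to 24576 in the other 5. Log2 fold changes without it are given for most of the members described in full. In whole tissue, a change in the number of cells of a type and a change in RNA per cell cannot be told apart.

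Most proteasome genes stood higher in YT-AKO than in YT-FF libraries, and none was called lower. Of the 50 genes, 48 passed the filter on low counts, and 28 of them (58.3%) rose at an adjusted p under 0.05 in the quasi-likelihood test of edgeR, adjusted by Benjamini-Hochberg over 16807 genes. Over all tested genes 12.6% rose and 9.01% fell. None of the 48 fell, at the adjusted threshold or at an unadjusted p under 0.05, in edgeR or DESeq2 (DESeq2 called 12.6% of all its genes lower), and 40 were higher at an unadjusted p under 0.05, as were 22.2% of all tested genes. Their median log2 fold change was 0.98, against -0.02 for all tested genes, and 44 of the 48 values were positive, from -0.18 for *Psmd1* to 1.82 for *Psmg3*. Levels in CPM, which scales counts to the library size and TMM factor, did not overlap between the groups for 42 of the 48. All 3 YT-AKO libraries were above in those 42 (25.7% of all tested genes) and below in 0 (25.8% of all tested genes). *Psma8*, an alpha subunit of the testis, had 2 to 13 counts per library and *Psmb11*, a catalytic subunit of the thymus, 0 to 1, and neither was tested.

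The number of calls and the size of the change depended on single libraries. YT-AKO 2 was the highest of the 3 YT-AKO libraries in 42 of the 48 genes and the lowest in 6. The genes took 0.415% to 0.461% of all counts in YT-FF, 0.548% and 0.555% in YT-AKO 1 and 3, and 0.818% in YT-AKO 2. Without YT-AKO 2 the median log2 fold change was 0.57 and 38 of the 48 genes were called higher (16.9% of all tested genes), among them 28 of the 28 above. Without YT-FF 1 or without YT-FF 2 edgeR called 0 of them, and it then called no gene at all higher (0% of all tested genes each time). At an unadjusted p under 0.05, 33 members were higher in each of these fits, against 15.2% and 14.6% of all tested genes. Without YT-FF 3 it called 2 of the 48, a share near the 4.03% of all tested genes, with 38 higher at an unadjusted p under 0.05, against 18.9%. The medians were then 0.92, 0.92 and 1.07. On all 6 libraries DESeq2 called 38 higher, where it called 16.2% of all genes it tested. At an adjusted p under 0.01 and beyond a log2 fold change of 1, edgeR called 0 (0.0892% of all tested genes) and DESeq2 17 (7.58% of all genes it tested). With library totals alone as the scale, edgeR called 12 (6.77% of all tested genes).

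**Figure D1:**
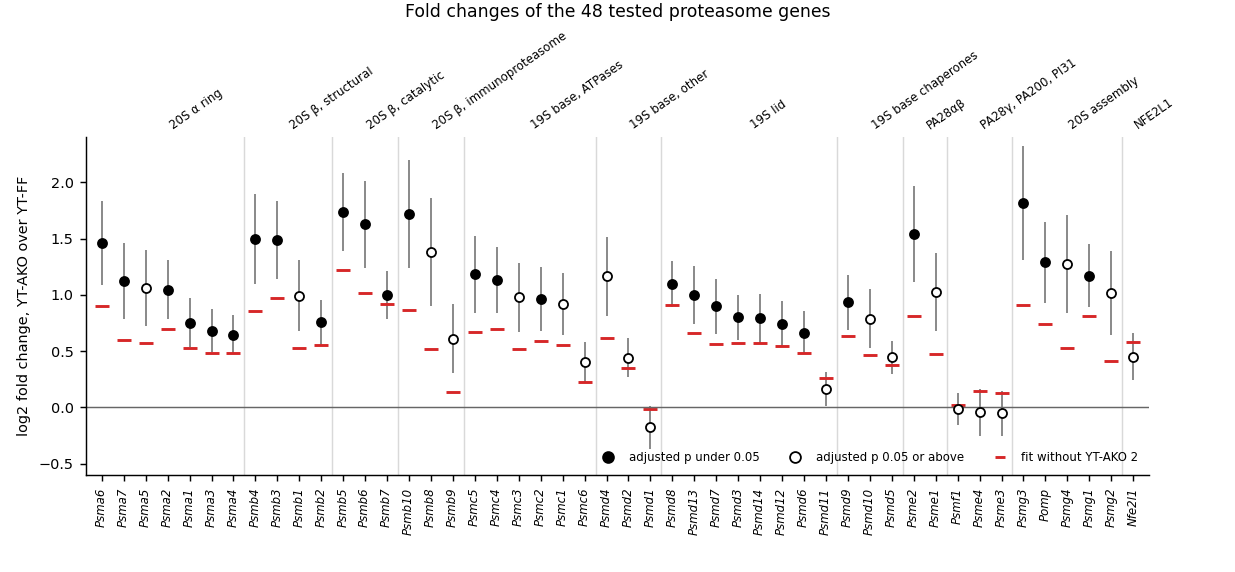
Each point is the log2 fold change (YT-AKO over YT-FF) of 1 of the 48 tested genes with its standard error from edgeR, grouped by sub-complex, filled where the adjusted p is under 0.05, and red bars give the fit without YT-AKO 2. *Psmg3*, *Psmb5* and *Psmb10* have the highest values, from 1.72 to 1.82, the genes of PA28 gamma, PA200 and PI31 lie near 0, and most red bars lie well below their points.

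**Figure D2:**
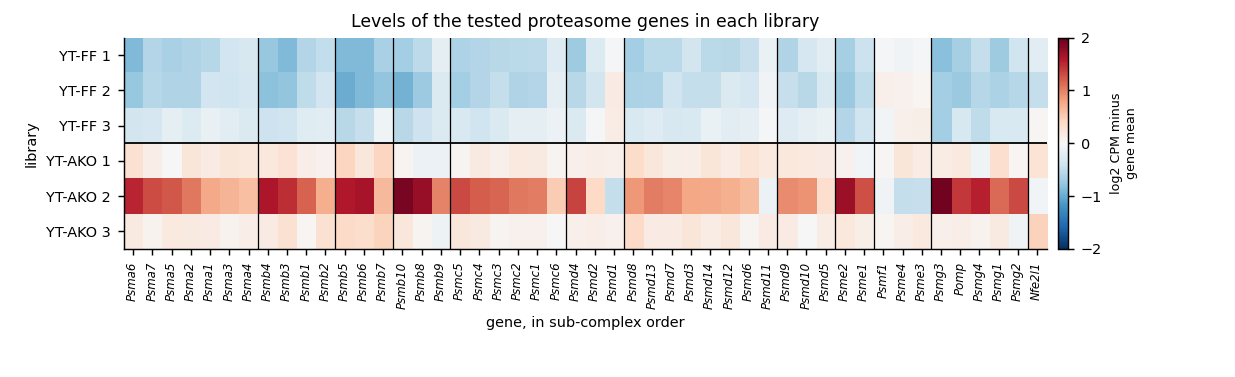
Colours give the log2 CPM of each tested gene in each of the 6 libraries minus that gene's mean over all 6, on a scale that ends at -2 and 2, with genes in the order of the sub-complexes. The 3 YT-FF rows are mostly blue, YT-AKO 1 and 3 are mostly pale red, and YT-AKO 2 is red for all but the 6 genes in which it is the lowest YT-AKO library.

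The constitutive catalytic subunits, which carry the 3 kinds of cutting site of the core, all rose. *Psmb5* (ENSMUSG00000022193, chr14:54614119-54618022 on the minus strand), the chymotrypsin-like subunit, had 49.3, 45.9 and 62.1 CPM in YT-FF 1 to 3 and 124, 279 and 120.0 CPM in YT-AKO 1 to 3. The groups did not overlap, and YT-AKO 2 was the highest library (log2 fold change 1.73, standard error 0.347, edgeR adjusted p = 0.0213). *Psmb6* (ENSMUSG00000018286, chr11:70525367-70527858 on the plus strand), the caspase-like subunit, had 64.1, 63.9 and 85.6 CPM against 138, 370.5 and 151 CPM (log2 fold change 1.63, standard error 0.387, edgeR adjusted p = 0.0290). Its groups were also apart, again with YT-AKO 2 far above the rest. *Psmb7* (ENSMUSG00000026750, chr2:38588036-38644087 on the minus strand), the trypsin-like subunit, had 50.3, 45.4 and 74.6 CPM against 107, 125 and 108 CPM (log2 fold change 1.0, standard error 0.214, edgeR adjusted p = 0.0240). Here the 3 YT-AKO libraries were close to each other, and without YT-AKO 2 the log2 fold change was 0.92, against 1.22 for *Psmb5* and 1.02 for *Psmb6*. *Psmb5* shares 49.4% of its 50-base words with *Gm3375*, and *Psmb7* has 11.8% of its exon bases in *Nek6*, so their counts are less certain.

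Of the 3 immunoproteasome subunits 1 was called. *Psmb10* (ENSMUSG00000031897, chr8:105935735-105938444 on the minus strand), the counterpart of *Psmb7*, had 75.8, 63.5 and 82.5 CPM in YT-FF and 127, 459 and 143 CPM in the libraries labelled YT-AKO (log2 fold change 1.72, standard error 0.481, edgeR adjusted p = 0.0421). *Psmb8* (ENSMUSG00000024338, chr17:34197721-34201454 on the plus strand), the counterpart of *Psmb5*, had 97.9, 84.5 and 105 CPM against 129.6, 473 and 146 CPM (log2 fold change 1.38, standard error 0.478, edgeR adjusted p = 0.0711). Both were separate between the groups, with YT-AKO 2 far above the other YT-AKO libraries, and without it their log2 fold changes were 0.87 and 0.52, both called (edgeR adjusted p = 0.00474 and 0.0224). *Psmb9* (ENSMUSG00000096727, chr17:34181987-34187764 on the minus strand), the counterpart of *Psmb6*, had 86.4, 80.9 and 80.8 CPM against 90.6, 197 and 91.7 CPM (log2 fold change 0.61, standard error 0.306, edgeR adjusted p = 0.171). YT-AKO 1 and 3 lay only slightly above YT-FF, and without YT-AKO 2 the log2 fold change was 0.14. Exon bases of *Psmb8* are shared with *Gm20496* (14.7%) and those of *Psmb9* with *Tap1* (5.79%).

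Within a library, the ratio of each immunoproteasome subunit to its constitutive counterpart does not depend on the scaling between libraries. It can depend on exon length, which was 3381 bp for *Psmb8* and 899 bp for *Psmb5*, 3660 and 1872 bp for *Psmb9* and *Psmb6*, and 1705 and 3421 bp for *Psmb10* and *Psmb7*. With an offset fitted to length in each library, the log2 fold changes of these pairs were 1.39 and 1.33, 0.66 and 1.30, and 1.34 and 0.99. The part of length in the ratios was not tested. In counts per kilobase of exon, the ratio of *Psmb9* to *Psmb6* was 0.689, 0.647 and 0.483 in YT-FF and 0.336, 0.271 and 0.311 in YT-AKO. All 3 YT-AKO libraries were lower (difference of log2 ratios -0.98, standard error 0.182, two-sided exact permutation test p = 0.1, the smallest that 3 against 3 libraries allow, 0.3 after Benjamini-Hochberg adjustment over the 3 pairs). *Psmb8* to *Psmb5* was 0.528, 0.489 and 0.450 in YT-FF and 0.278, 0.451 and 0.323 in YT-AKO, with YT-AKO 2 inside the YT-FF range (difference of log2 ratios -0.51, standard error 0.217, exact permutation p = 0.2, adjusted 0.3). *Psmb10* to *Psmb7* was 3.02, 2.80 and 2.22 in YT-FF and 2.38, 7.38 and 2.65 in YT-AKO (difference of log2 ratios 0.44, standard error 0.538, exact permutation p = 0.7, adjusted 0.7). That difference rested on YT-AKO 2, without which it was -0.08.

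**Figure D3:**
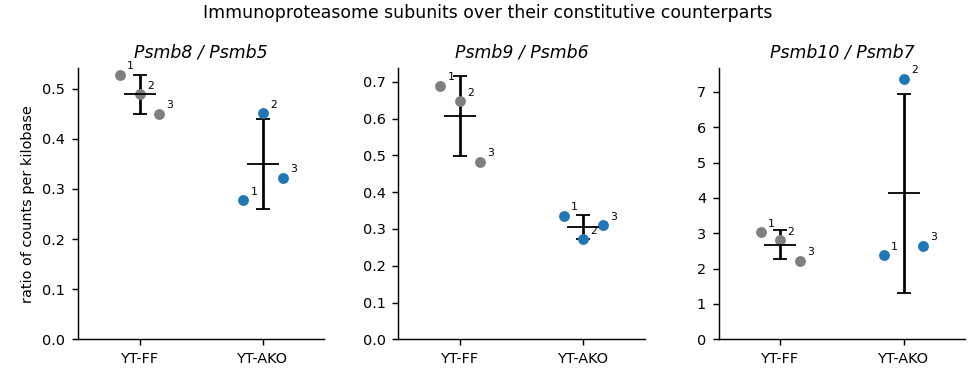
Each panel gives the ratio of counts per kilobase of an immunoproteasome subunit to its constitutive counterpart, with 1 point per library labelled by replicate number and the mean ± SD of the 3 libraries of a group. *Psmb9* over *Psmb6* is apart between the groups, *Psmb8* over *Psmb5* is not, and in *Psmb10* over *Psmb7* only YT-AKO 2, at 7.38, leaves the range of the other libraries.

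Promoters are shown for members that hold the antioxidant response element core, the site class that NFE2L1 binds with small MAF proteins. The 250 bases before each RefSeq start (GRCm38.p6, the build the files call mm10) were searched on both strands for TGACNNNGC, which was chosen with these results known. It was found in 5 of the 49 windows of the 42 members in the table (10.2%) and in 10.2% of all 32851 windows, the same share. The members were *Psmb5*, *Psmb6*, *Psmc6*, *Psmd9* and *Psmd12*, of which *Psmc6* was not called. The whole windows of the 2 catalytic subunits and 41-base stretches of the other 3 follow, 5′ to 3′ in the direction of the gene, with the match in capitals (reversed and complemented where it lies on the other strand). In *Psmb5* the match also holds TGACGT, the half-site of the cyclic AMP response element.
Psmb5 (chr14:54617996-54618245, minus strand): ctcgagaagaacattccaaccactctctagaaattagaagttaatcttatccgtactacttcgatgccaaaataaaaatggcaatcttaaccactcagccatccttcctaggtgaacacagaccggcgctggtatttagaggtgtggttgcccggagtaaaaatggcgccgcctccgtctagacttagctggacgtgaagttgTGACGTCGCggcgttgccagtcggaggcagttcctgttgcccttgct
Psmb6 (chr11:70525107-70525356, plus strand): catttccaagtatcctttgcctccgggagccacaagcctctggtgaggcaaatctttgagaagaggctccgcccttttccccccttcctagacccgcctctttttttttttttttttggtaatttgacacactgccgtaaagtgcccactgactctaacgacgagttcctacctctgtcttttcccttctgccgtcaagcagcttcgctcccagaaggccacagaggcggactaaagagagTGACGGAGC
Psmc6 (chr14:45329581-45329621, plus strand): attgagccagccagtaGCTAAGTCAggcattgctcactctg
Psmd9 (chr5:123228143-123228183, plus strand): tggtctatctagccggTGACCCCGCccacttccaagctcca
Psmd12 (chr11:107479278-107479318, plus strand): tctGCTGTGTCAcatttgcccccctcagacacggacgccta

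Of 9 motifs searched, the one whose share differed most from that of all windows was TTCCGG, the core of ETS factor sites, in 20 of the 49 windows (40.8%) against 12%. No test was run on these shares. Stretches of 41 bases show it in an alpha subunit, an ATPase, a ubiquitin receptor and an assembly chaperone, with all matches in capitals (CCGGAA on the other strand, and both orders run together in *Psmd4*).
Psma6 (chr12:55398676-55398716, plus strand): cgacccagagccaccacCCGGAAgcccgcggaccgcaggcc
Psmc5 (chr11:106256073-106256113, plus strand): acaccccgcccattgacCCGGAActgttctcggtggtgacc
Psmd4 (chr3:95042718-95042758, minus strand): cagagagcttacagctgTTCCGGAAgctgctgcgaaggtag
Pomp (chr5:147860549-147860589, plus strand): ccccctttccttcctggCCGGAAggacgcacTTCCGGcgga

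GGGCGG, the SP1 box, was in 53.1% of the members' windows and 32.7% of all, CCAAT in 36.7% and 33.8%, TGACCT, a nuclear receptor half-site, in 26.5% and 14%, TGACGT in 10.2% and 6.47%, the interferon-stimulated element in 6.12% and 2.98%, the core of NRF-1 sites in 2.04% and 0.782%, and TGACCTTTG, the site of estrogen-related receptors, in 0% and 0.426%. NRF-1 in this list is nuclear respiratory factor 1, a different protein from NFE2L1. TGACCT lies within TGACCTTTG, and other matches may overlap too. These shares describe letters in a window and say nothing of binding. *Psma8*, *Psmb1*, *Psmb2*, *Psmb7*, *Psmc3*, *Psmd3*, *Psmd7* and *Psmg2* were not matched to the table.

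Most other subunits of the core were called higher too. Of the 7 tested alpha subunits 6 were called (median log2 fold change 1.04). *Psma6* had the highest, from 83.4, 91.4 and 121 CPM in YT-FF to 191, 446 and 176 CPM in the libraries labelled YT-AKO (log2 fold change 1.46, standard error 0.373, edgeR adjusted p = 0.0340). *Psma4*, whose product helps to keep the gate closed, had the lowest, from 97.4, 96.5 and 99.9 CPM to 141, 186 and 133 CPM (log2 fold change 0.64, standard error 0.174, edgeR adjusted p = 0.0384). Both kept the groups apart, their log2 fold changes without YT-AKO 2 were 0.90 and 0.48, and the uncalled member was *Psma5* (log2 fold change 1.06, edgeR adjusted p = 0.0563). Of the 4 structural beta subunits 3 were called (median 1.24 on the log2 scale). *Psmb4*, the last beta subunit to join the ring, had 104, 99.7 and 132 CPM against 206, 544 and 199 CPM (log2 fold change 1.5, standard error 0.40, edgeR adjusted p = 0.0377), and *Psmb2* had 57.7, 62.7 and 70 CPM against 86.2, 135 and 101 CPM (log2 fold change 0.76, standard error 0.199, edgeR adjusted p = 0.0366). All 3 YT-AKO libraries were above YT-FF in both, with YT-AKO 2 far above in *Psmb4* alone, and the log2 fold changes without that library were 0.85 and 0.56. Of the other structural members, *Psmb3* was called (log2 fold change 1.48, edgeR adjusted p = 0.0279) and *Psmb1* was not (0.99, edgeR adjusted p = 0.0577).

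In the 19S base, the ATPases that unfold the substrate had 3 of 6 called, with a median log2 fold change of 0.97. *Psmc5* was highest, with 68.8, 66.2 and 85.6 CPM in YT-FF and 109.9, 267 and 124 CPM in the libraries labelled YT-AKO (log2 fold change 1.18, standard error 0.34, edgeR adjusted p = 0.0448). *Psmc6* was lowest, with 76.3, 80.6 and 84.5 CPM against 95.6, 130.1 and 92.5 CPM (log2 fold change 0.40, standard error 0.177, edgeR adjusted p = 0.131), so its groups were narrowly apart without a call. Without YT-AKO 2 the log2 fold changes of *Psmc5* and *Psmc6* were 0.67 and 0.22. *Psmc2* and *Psmc4* were also called, and *Psmc1* and *Psmc3* just missed the threshold (edgeR adjusted p = 0.0504 and 0.0569). None of the 3 other base subunits was called by edgeR, although 2 of them had an unadjusted p under 0.05, and DESeq2 called 1. *Psmd4*, a ubiquitin receptor, had 86.6, 95.6 and 115 CPM against 152, 362 and 152 CPM (log2 fold change 1.16, standard error 0.355, edgeR adjusted p = 0.0518), and without YT-AKO 2 it was called at a log2 fold change of 0.61 (edgeR adjusted p = 0.0153). *Psmd1*, a large scaffold subunit, had 84.4, 96.5 and 94.9 CPM against 91.7, 61.6 and 90.5 CPM (log2 fold change -0.18, standard error 0.191, edgeR adjusted p = 0.509), with YT-AKO 2 the lowest of all 6 libraries. Without that library its log2 fold change was -0.01. *Psmd2*, the other scaffold, had a log2 fold change of 0.44 (edgeR adjusted p = 0.0949).

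The 19S lid, which strips ubiquitin from the substrate, had 7 of 8 members called, with a median log2 fold change of 0.79. *Psmd8*, known to join the lid last, had 102, 107 and 133 CPM in YT-FF and 213, 303 and 216 CPM in the libraries labelled YT-AKO (log2 fold change 1.1, standard error 0.205, edgeR adjusted p = 0.0196), and it stayed at 0.91 without YT-AKO 2. *Psmd11*, known to bridge the lid and the core, had 74.4, 77.5 and 79.5 CPM against 93.5, 74.7 and 91.3 CPM (log2 fold change 0.17, standard error 0.151, edgeR adjusted p = 0.435), with overlapping groups. Its log2 fold change without YT-AKO 2 was 0.26, still without a call. *Psmd14*, the deubiquitinase of the lid, rose by 0.79 on the log2 scale (edgeR adjusted p = 0.0391). The other called lid genes, *Psmd3*, *Psmd6*, *Psmd7*, *Psmd12* and *Psmd13*, ran from 0.66 to 1.0. Of the 3 chaperones that build the base, *Psmd9* was called, from 16.2, 18.1 and 20.9 CPM to 28.9, 48.3 and 28.1 CPM (log2 fold change 0.93, standard error 0.246, edgeR adjusted p = 0.0369), with a log2 fold change of 0.63 without YT-AKO 2. *Psmd5* had 40.9, 38.6 and 43.6 CPM against 53.4, 60.6 and 53.2 CPM (log2 fold change 0.44, standard error 0.143, edgeR adjusted p = 0.0599) and *Psmd10*, also known as gankyrin, 0.79 on the log2 scale (edgeR adjusted p = 0.0644).

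The activators parted by kind. PA28 alpha and beta, an interferon-induced cap of the core, are encoded by *Psme1* and *Psme2*. *Psme2* (ENSMUSG00000079197, chr14:55587441-55591113 on the minus strand) had 82.2, 78 and 86.6 CPM in YT-FF and 138, 429.7 and 151 CPM in the libraries labelled YT-AKO (log2 fold change 1.54, standard error 0.425, edgeR adjusted p = 0.0404), although 59.3% of its 50-base words are shared with *Psme2b*. *Psme1* (ENSMUSG00000022216, chr14:55578123-55581529 on the plus strand) had 127, 120.1 and 129 CPM against 165, 416 and 184 CPM (log2 fold change 1.03, standard error 0.345, edgeR adjusted p = 0.0660). Neither overlapped between the groups, and without YT-AKO 2 both were called (log2 fold changes 0.81 and 0.48, edgeR adjusted p = 0.00313 and 0.0185). The nuclear activator PA28 gamma, PA200 and the inhibitor PI31 are encoded by *Psme3*, *Psme4* and *Psmf1*, and all 3 overlapped between the groups. Neither edgeR nor DESeq2 called any of them, and 0 had an unadjusted p under 0.05 in edgeR. *Psme3* had 81.8, 86.9 and 92.1 CPM against 93.6, 61.3 and 96.3 CPM (log2 fold change -0.05, standard error 0.20, edgeR adjusted p = 0.857), and *Psmf1* had 31.6, 34.7 and 30.9 CPM against 32.6, 30.5 and 33.1 CPM (log2 fold change -0.02, standard error 0.142, edgeR adjusted p = 0.944). *Psme4* had a log2 fold change of -0.05 (edgeR adjusted p = 0.884). These activator genes differ in exon length, from 1764 bp for *Psme2* to 8382 bp for *Psme4*. With an offset fitted to length in each library, edgeR called 0 of the 2 PA28 alpha and beta genes higher, where 9.57% of all tested genes were called. Their median log2 fold change was then 0.98, and that of the other 3 was 0.25. YT-AKO 2, the library with the highest levels in most members, was the lowest for *Psme3* and *Psme4* and, narrowly, for *Psmf1*.

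Of the 5 genes that assemble the core, 3 were called, with a median log2 fold change of 1.27. *Pomp* (ENSMUSG00000029649, chr5:147860461-147876456 on the plus strand), the chaperone of the beta ring, had 72.8, 68.9 and 92.5 CPM in YT-FF and 134, 312 and 127 CPM in the libraries labelled YT-AKO (log2 fold change 1.29, standard error 0.358, edgeR adjusted p = 0.0411), and without YT-AKO 2 its log2 fold change was 0.74. *Psmg3*, the partner of *Psmg4* in a chaperone of the alpha ring, had 4.90, 5.54 and 5.51 CPM against 10.2, 36.2 and 9.87 CPM (log2 fold change 1.82, standard error 0.511, edgeR adjusted p = 0.0423), the highest fold change of all 48 but from low levels, and without YT-AKO 2 it was 0.91. *Psmg2*, the partner of *Psmg1* in another such chaperone, had 18.7, 16.4 and 19.9 CPM against 25.3, 62.5 and 23.4 CPM (log2 fold change 1.02, standard error 0.373, edgeR adjusted p = 0.0821). All 5 assembly genes were apart between the groups, *Psmg1* was called (log2 fold change 1.17, edgeR adjusted p = 0.0292), and *Psmg4* was not (1.27, edgeR adjusted p = 0.0683). Without YT-AKO 2 *Psmg2* had a log2 fold change of 0.41, still without a call (edgeR adjusted p = 0.0571), and that of *Psmg4* was 0.53, then called (edgeR adjusted p = 0.0385). *Nfe2l1* (ENSMUSG00000038615, chr11:96817414-96829968 on the minus strand) had 339, 287 and 404 CPM against 479, 382 and 546 CPM (log2 fold change 0.45, standard error 0.212, edgeR adjusted p = 0.148). Its groups overlapped through YT-AKO 2, the lowest YT-AKO library, and without that library the gene was called (log2 fold change 0.58, edgeR adjusted p = 0.0297).

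Levels of different genes were compared in TPM, which divides counts by exon length and by the library's sum of these values. In the YT-FF libraries the tested genes ran from 6.98 TPM for *Psmg3* to 302 TPM for *Psma6*, with a median of 107 TPM. *Psma6* had 302 ± 47 TPM in YT-FF and 484 ± 131 TPM in the libraries labelled YT-AKO (n = 3 in each group, mean ± SD). *Psmb5* had 220.5 ± 25.2 TPM in YT-FF and 430.2 ± 98.5 TPM in the libraries labelled YT-AKO and *Psmd1* 48 ± 3.97 TPM in YT-FF and 28 ± 11.4 TPM in the libraries labelled YT-AKO (n = 3, mean ± SD). TPM also takes a share of all transcripts, and on this scale the median log2 ratio of group means was -0.66 over all tested genes and 0.23 over the members. Relative to all genes the members therefore stood 0.89 higher in TPM and 1.0 higher in the TMM-scaled fit. In TPM, 18 of the 48 members had all YT-AKO libraries above YT-FF (7.52% of all tested genes) and 7 had all below (54.5% of all tested genes). Fragments shared between genes limit some of these levels, since 9 members share at least 20% of their 50-base words with another gene and 8 have at least 5% of their exon bases in one. The 7 below in TPM were *Psmc6*, *Psmd1*, *Psmd5*, *Psmd11*, *Psme3*, *Psme4* and *Psmf1*.

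Summed over the 14 constitutive core genes, TPM were 1899, 1995 and 2291 in YT-FF and 2641, 3504 and 2561 in the libraries labelled YT-AKO. Summed over 17 regulatory particle genes they were 1747, 1834 and 1997 against 2024, 2222 and 1974. The core sums were apart between the groups and the regulatory sums were not, and the ratio of core to regulatory was 1.09, 1.09 and 1.15 in YT-FF and 1.30, 1.58 and 1.30 in YT-AKO, a description for which no test was run. The core genes had a median of 2335 bp of exons and the regulatory genes 2820 bp, and the part of length in this ratio was not tested.

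Fold changes in these libraries ran with the summed exon length of the genes. The 48 members had from 555 bp (*Psmg4*) to 8382 bp (*Psme4*) of exons, with a median of 2856.5 bp, against 3888 bp over all tested genes. Between log2 fold change and length, Spearman's rho was -0.58 across the 48 members and -0.38 across all tested genes, which share the same 6 libraries and are not independent replicates. The 14 members under 2000 bp had a median log2 fold change of 1.23 with 9 called, and the 9 members over 5000 bp had 0.44 with 3 called. With an offset fitted to length in each library, these medians were 0.90 and 0.63, and rho was -0.14 across the members and -0.09 across all tested genes. The correction left 47 of 48 values positive, with a median of 0.78 against 0.08 for all tested genes, but 10 members called higher, where 9.57% of all tested genes were called. The 10 were *Psma2*, *Psmb3*, *Psmb5*, *Psmb6*, *Psmb7*, *Psmd3*, *Psmd5*, *Psmd8*, *Psmd9* and *Pomp*, so all 3 constitutive catalytic genes remained (log2 fold changes 1.33, 1.3 and 0.99, edgeR adjusted p = 0.0307, 0.0476 and 0.0317). With the length correction and without YT-AKO 2, 27 of 48 were called (15.4% of all tested genes), all 48 values were positive and the median was 0.49. The part of RNA quality in the relation with length was not tested.

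**Figure D4:**
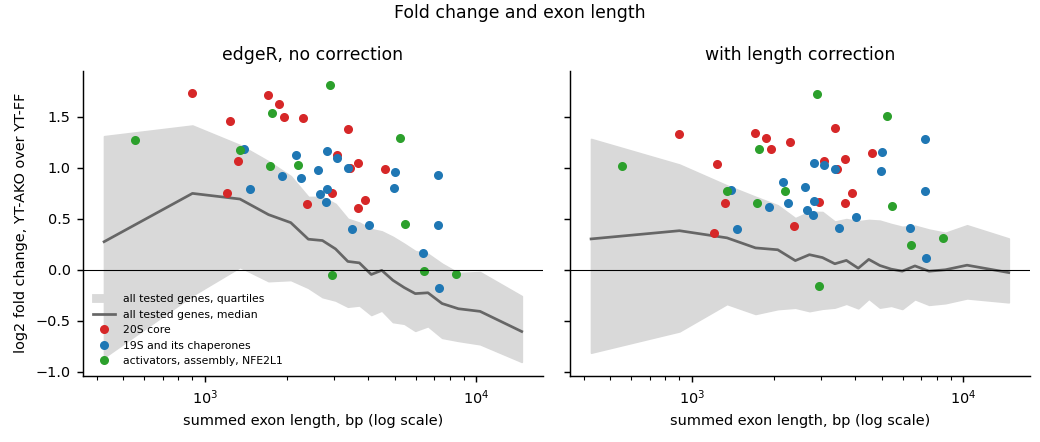
Log2 fold change (YT-AKO over YT-FF) against summed exon length on a log scale, before and after the length correction, with 1 point per tested member and the median (line) and quartiles (grey band) of all tested genes in 20 bins of length. In the left panel the line falls from 0.75 in the second bin to -0.61 in the last, and in both panels most members lie above it.

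**Figure D5:**
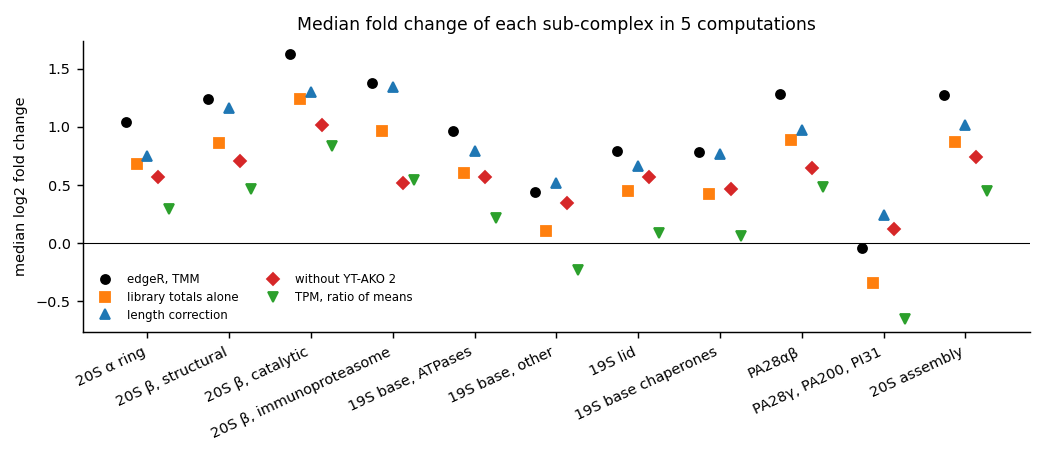
Median log2 fold change of the tested members of each sub-complex in 5 computations, with 1 marker per computation. The constitutive catalytic subunits have the highest median in 4 of the 5, from 0.84 to 1.63, and the group of PA28 gamma, PA200 and PI31 has the lowest in all 5.

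The other genes of the pathway were read by list in the same fit. Of 15 tested proteasome partners (16 listed, *Paaf1* was not matched), 2 rose and 1 fell, with a median log2 fold change of 0.03, where 12.6% of all tested genes rose. Both that rose are themselves subunits of the regulatory particle outside the naming rule. *Sem1*, a small lid subunit, had 40.3, 33.8 and 41.9 CPM in YT-FF and 78.5, 278 and 79.1 CPM in the libraries labelled YT-AKO (log2 fold change 1.91, standard error 0.493, edgeR adjusted p = 0.0349), and *Adrm1*, a ubiquitin receptor named after its values were seen, had 86.4, 79.3 and 108 CPM against 150.2, 223 and 156 CPM (log2 fold change 0.95, standard error 0.213, edgeR adjusted p = 0.0260). *Ubqln2*, a shuttle for ubiquitinated proteins, fell from 56.9, 54.9 and 57.5 CPM to 41.2, 39.6 and 41.5 CPM (log2 fold change -0.47, standard error 0.133, edgeR adjusted p = 0.0428). All 3 were apart between the groups. With YT-AKO 2 left out, the value for *Sem1* was 1.03, for *Adrm1* 0.75 and for *Ubqln2* -0.45 on the log2 scale, all still called by edgeR (adjusted p = 0.00204, 0.00874 and 0.0167).

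Of 12 genes that process NFE2L1 or are its relatives, 1 rose and none fell in edgeR or DESeq2, with 1 lower at an unadjusted p under 0.05 (median log2 fold change 0.03). The one that rose was *Ufd1*, a cofactor that helps to extract proteins from the endoplasmic reticulum, named after its values were seen (log2 fold change 0.53, edgeR adjusted p = 0.0436). The highest and lowest values were those of *Maff* (0.83, edgeR adjusted p = 0.13), a small MAF partner, and *Nfe2l3* (-0.81, edgeR adjusted p = 0.282), the closest relative. Of 7 antioxidant genes that NFE2L2 is known to raise, 1 rose, *Srxn1*, an enzyme that restores peroxiredoxins, with 19.1, 19 and 22.6 CPM against 43.1, 47 and 47.1 CPM (log2 fold change 1.18, standard error 0.151, edgeR adjusted p = 0.0166), and the median was -0.08. None of them fell in edgeR, where 2 were lower at an unadjusted p under 0.05, and DESeq2 called 2 lower. *Slc7a11*, the cystine transporter, had the lowest value (log2 fold change -0.88, standard error 0.27, edgeR adjusted p = 0.0525). It has 13922 bp of exons, and with the length correction its log2 fold change was -0.33, against 1.06 for *Srxn1*.

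Genes for ubiquitin and the E1 enzymes that charge it were read in the same way. Of 6 tested, 3 rose and 1 fell, where 12.6% of all tested genes rose and 9.01% fell. The median log2 fold change of the list was 1.04, and 0.63 without YT-AKO 2. *Rps27a*, which encodes ubiquitin fused to a ribosomal protein, was not called, with 242, 171 and 319 CPM in YT-FF and 398, 1563 and 352 CPM in YT-AKO (log2 fold change 1.66, standard error 0.581, edgeR adjusted p = 0.0729), and YT-AKO 2 was far above the other libraries. Without that library its log2 fold change was 0.62 (edgeR adjusted p = 0.0733). *Uba6*, an E1 enzyme, fell from 26.2, 26.5 and 31.1 CPM to 19.5, 12.1 and 17.6 CPM (log2 fold change -0.77, standard error 0.214, edgeR adjusted p = 0.0416). *Uba1*, the main E1 enzyme, had a log2 fold change of 0.21 (edgeR adjusted p = 0.341). With the length correction the log2 fold changes of *Rps27a*, *Uba6* and *Uba1* were 1.34, -0.42 and 0.35.

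For the genes that load peptides on MHC class I, of 12 tested 1 rose and 2 fell, with a median log2 fold change of 0.36. *Nlrc5*, an activator of MHC class I and immunoproteasome genes, had the lowest value and fell from 126, 138 and 83.8 CPM to 67.2, 56 and 63.8 CPM (log2 fold change -0.90, standard error 0.213, edgeR adjusted p = 0.0287). It has 8493 bp of exons, and with the length correction its log2 fold change was -0.51. *Tap2*, a subunit of the peptide transporter, had the highest, with 110.1, 89.8 and 100.4 CPM against 121, 229.6 and 126 CPM (log2 fold change 0.67, standard error 0.266, edgeR adjusted p = 0.102), and 0.30 on the log2 scale without YT-AKO 2. Named after their values were seen, *Erap1*, which trims peptides, also fell (-0.58, edgeR adjusted p = 0.0442), the chaperone gene *Calr* rose (0.61, edgeR adjusted p = 0.0380), and *Tap1* had -0.40 (edgeR adjusted p = 0.114). With the length correction the log2 fold changes of *Tap2*, *Erap1*, *Calr* and *Tap1* were 0.73, -0.27, 0.50 and -0.20.

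Markers of the cells in the tissue moved beside these results. Of 6 adipocyte markers 2 rose, and their summed level was 9957 to 14939 CPM in YT-FF and 16986 to 29142 CPM in the libraries labelled YT-AKO. *Fabp4* carried much of that sum, with 4072 to 7199 CPM in YT-FF and 9159, 20229 and 10204 CPM in YT-AKO 1 to 3, and without it the other 5 summed to 5730 to 7740 CPM in YT-FF and 7827, 8913 and 10074 CPM in YT-AKO 1 to 3. YT-AKO 2 was thus highest with *Fabp4* and YT-AKO 3 without it. Of 6 beige and brown fat markers 5 rose, from a sum of 157 to 223 CPM to one of 1603 to 3444 CPM, highest in YT-AKO 2. Of 14 leukocyte markers none rose and 4 fell in both edgeR and DESeq2, with 1 higher at an unadjusted p under 0.05, the sums overlapped at 2068 to 2549 CPM and 1984 to 2612 CPM, and *Ptprc* had the lowest log2 fold change of the list, -1.22. *Ptprc* has 18313 bp of exons, and with the length correction its log2 fold change was -0.58. Of 8 skeletal muscle markers 1 rose, with sums of 122 to 454 CPM in YT-FF and 212 to 3350 CPM in YT-AKO, highest in YT-AKO 1. Of 8 fibroblast and endothelial markers 1 rose and 1 fell. Of 6 epithelial markers 2 passed the filter and none was called by edgeR or DESeq2 or had an unadjusted p under 0.05, with *Krt5* at 0 counts in all 6 libraries and sums of 3.66 to 5.10 CPM. The part of these cells in the levels of the proteasome genes was not tested.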

How the data were processed

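Total RNA of scWAT was sequenced as paired ends from 3 YT-FF and 3 YT-AKO male mice. Per the file headers and the study's methods, the authors used HISAT2 for mapping to mm10 and deposited raw counts of fragments per gene from featureCounts 2.0.1 on the exons of GENCODE mouse release 25, unstranded and without normalization. Fragments that fit several places or genes were left out, so genes with near-identical copies or overlapping exons lose counts. The groups come from the sample labels.

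Of 55401 gene identifiers, 55141 were matched to a symbol and 260 were not. The proteasome genes, the other lists and the motifs were chosen with earlier results of these data known. Counts were fitted with edgeR 4.0.16 (R 4.3.3) by the quasi-likelihood test with TMM factors (0.777 to 1.16) over the 16807 genes that passed filterByExpr (minimum count 10, minimum total 15), with Benjamini-Hochberg adjustment over all of them and a call at an adjusted p under 0.05. Totals of 17740987 to 21838493 counts gave the tested members 107 to 9236 counts per library, and the common biological coefficient of variation was 0.288. The study's methods name DESeq2, which was run as an alternative (1.42.0), as was limma-voom (limma 3.58.1). Medians over a sub-complex have no test. Ratios of subunits were compared by a two-sided exact permutation test over libraries.

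Full values are given for the catalytic subunits, *Psme1*, *Psme2*, *Pomp*, *Nfe2l1*, and the members with the highest and lowest log2 fold change in each sub-complex and each pathway list. Other normalizations, filters, replicate blocking, a length offset (a spline per library, 6 degrees of freedom) and leaving out each library were planned. A GC offset, the length offset without YT-AKO 2 and ratios of TPM were added after the data were seen. Copies were sought as shared 50-base words among transcripts, and the fit was tested on simulated data. Promoters are from RefSeq (GRCm38.p6), with 42 of 50 members matched. Protein sequences were not used here, and some genes of the pathway lists are not reported here.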

Additional observations from a re-analysis of the deposited data

How the results depend on the processing

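The number of members called higher was 28 with edgeR. It was 12 with library totals alone, 10 with the length correction, 0 under the stricter rule (adjusted p under 0.01, log2 fold change beyond 1), and 0 to 38 with each library left out. With the replicate number as a block (replicate block) edgeR called 0, alone or with the length correction, where 0.143% and 0.274% of all tested genes were called higher, and 37 and 32 were higher at an unadjusted p under 0.05, against 18.4% and 19% of all tested genes. The labels give no shared origin for equal numbers. The deviations of same-numbered libraries correlated at 0.13, -0.12 and -0.09, and those of differently numbered ones at -0.14 to 0.16. So few libraries cannot show whether equal numbers share a litter or batch, and whether the numbers pair the mice is not known. Of the 26 members named with full values, 22 were positive in all 18 settings, and the exceptions were *Psmd1*, *Psmd11*, *Psme3* and *Psmf1*. *Psmd1* became 0.12 with the length correction, 0.12 with that and the block, and 0.21 with the length correction without YT-AKO 2. *Psmd11* became -0.15 with library totals. *Psme3* became 0.10 with the GC correction, 0.0287 with the length correction without YT-AKO 2, and -0.16 to 0.13 with each library left out. *Psmf1* became 0.25 with the length correction, 0.25 with that and the block, 0.19 with the length correction without YT-AKO 2, 0.0602 with the GC correction and -0.0442 to 0.0306 with each library left out (0.0175 without YT-AKO 2).

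With each library left out, the median log2 fold change ran from 0.57 to 1.16 over all members, 0.57 to 1.21 for the alpha ring, 0.70 to 1.45 for structural beta, 1.02 to 1.89 for constitutive catalytic, 0.52 to 1.71 for immunoproteasome, 0.46 to 0.97 for base chaperone and 0.64 to 1.55 for PA28 alpha and beta genes, each time lowest without YT-AKO 2. The difference between the groups (YT-AKO minus YT-FF) in the log2 ratio of *Psmb10* to *Psmb7* ran from -0.0836 to 0.73. With the length correction and without YT-AKO 2, the medians were 0.49 (all members), 0.51 (alpha ring), 0.61 (structural beta), 0.89 (constitutive catalytic), 0.49 (immunoproteasome), 0.40 (ATPases), 0.44 (lid), 0.43 (PA28 alpha and beta) and 0.57 (assembly). In TPM they were 0.23, 0.30, 0.47, 0.84, 0.54, 0.22, 0.0906, 0.49 and 0.45 in that order, with -0.23 for the other base subunits, 0.0603 for base chaperones and -0.65 for PA28 gamma, PA200 and PI31. With library totals, where the median of all tested genes moved to -0.34, they were 0.61 (all members), 0.11 (other base subunits), 0.45 (lid), 0.43 (base chaperones) and -0.34 (PA28 gamma, PA200 and PI31), and the last of these was 0.25 with the length correction. The causes were not tested. With 3 libraries in a group, the exact tests cannot go below 0.1.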
